A study of Mus musculus with 6 samples.

Results

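Voltage-gated sodium and calcium channel genes were followed in samples named as star pyramid neurons of the mouse visual cortex, taken after 1 eye had been silenced. Such neurons are excitatory cells found in layer 4. The members were chosen by gene symbol. They comprise every named gene whose symbol is Scn followed by a number and a or b, every named gene whose symbol starts with Cacn, and the sodium channel partners Ank3 and Fgf13. This rule found 31 of the 14859 named genes, each with 1 transcript cluster on the array. There were 7 sodium channel pore-forming subunits, 3 sodium channel beta subunits, 9 calcium channel pore-forming subunits and 10 auxiliary calcium channel subunits besides Ank3 and Fgf13. Genes of these families without a cluster named for them alone, such as Scn2a, Cacna1i, Cacnb3, Cacng3 and Cacng8, were not analysed here.

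The deprived group held 3 samples of m-Citrin-labelled star pyramid neurons from the deprived hemisphere and the non-deprived group 3 such samples from the other hemisphere, all taken at postnatal day 14. All 6 samples came from mice under monocular deprivation, with tetrodotoxin (TTX) injected at postnatal day 12 to 13 and again at 13 to 14, so the non-deprived samples are not from untreated animals. Neurons were picked by hand from dissociated tissue, and their total RNA (0.3 to 1 ng) went through 2 amplification rounds before hybridisation, 1 array per sample. The sources used here give no mouse strain and do not say what drives m-Citrin. They also do not state that the 3 samples in each group were from separate animals. The p-values set each difference against variation among these samples, estimated with the help of all genes, and some of that variation may be technical. Whether they extend to other animals is not known. Each label ends in a letter, l for non-deprived and r for deprived samples, and if these mark the hemisphere side, side and deprivation cannot be told apart.

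Voltage-gated sodium channels carry the rising phase of the action potential. A large pore-forming alpha subunit is accompanied by beta subunits, which shape gating and surface expression, and is held at the axon initial segment by ankyrin-G, the product of Ank3. Voltage-gated calcium channels turn depolarisation into calcium entry. Their alpha1 subunits fall into L-type, P/Q-, N- and R-type, and low-voltage T-type channels, and beta and alpha2delta subunits control how many channels with a high voltage threshold reach the membrane. TTX, the agent injected here, is a blocker of the sodium channel pore, but it was given to silence the eye, not the cortex.

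Of the 6 arrays, numbers 2 and 3 of the non-deprived group were unlike the rest. The 75th percentile of all named genes was 6.43 and 6.55 there, against 7.01 to 7.15 on the other arrays, and they held 2769 and 2900 genes above a log2 value of 7, against 3727 to 3960. For this reason many differences below are given with all 6 arrays and again against non-deprived array 1 alone, which is then assumed to vary as the deprived arrays do. Markers of excitatory neurons, fixed as a list of 6 of which 5 were measured, had a summed linear level of 2369 to 3028.8 on the deprived arrays and 1280.7 to 1738.2 on the non-deprived arrays, and 5 of 5 were higher in the deprived group. The 5 layer 4 markers, all measured, summed to 1478.9 to 2349.4 on the deprived and 1462.8 to 1731.7 on the non-deprived arrays, and 5 of 5 were higher in the deprived group. Markers of inhibitory neurons (8 of 8 measured, 5 higher) summed to 1973.7 to 3978.2 on the deprived and 1864 to 3683.5 on the non-deprived arrays. On every array except deprived array 1, the sum of the shorter excitatory list was below this inhibitory sum. Sst, a marker of one class of inhibitory neuron, made up 54.8% to 77.5% of that sum on the deprived and 71.3% to 87.9% on the non-deprived arrays, with a log2 difference of -0.10. Other genes of the list had higher means in deprived neurons, with log2 differences of 1.53 for Pvalb, 1.503 for Gad2, 0.67 for Gad1, 0.53 for Slc32a1 and 0.46 for Dlx1. Vip and Lhx6 had log2 differences of -0.008 and -0.005. Against non-deprived array 1 alone the log2 difference was -0.38 for Gad2, -0.48 for Gad1, -0.41 for Sst and -0.43 for Lhx6. It was 1.05 for Pvalb, 0.55 for Slc32a1, 0.05 for Dlx1 and 0.07 for Vip. The lists for astrocytes, oligodendrocytes, microglia and vessels summed to between 140.8 and 399.5 on the deprived and between 137.7 and 257.3 on the non-deprived arrays. None of the marker genes passed the test described next. The part that cell composition plays in the results was not tested, and with bulk RNA fewer cells of a type and less RNA per cell cannot be told apart.

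In deprived neurons, the auxiliary calcium channel subunit Cacnb1 had a log2 value higher by 0.92 and the sodium channel beta subunit Scn2b by 2.10. The R-type calcium channel gene Cacna1e was higher by 1.26 and the anchoring protein gene Ank3 by 0.90. The peripheral sodium channel gene Scn9a, with a mean log2 value of only 3.07 over the 6 arrays, was lower by 0.69. Against non-deprived array 1 alone these log2 differences were 0.84 for Cacnb1, 0.49 for Scn2b, 0.30 for Cacna1e, 0.16 for Ank3 and -0.34 for Scn9a. None of these differences passed the threshold. Each gene was tested with limma over all 14859 named genes, with Benjamini-Hochberg adjustment at 0.05, and 0 of the 31 channel genes passed (smallest adjusted p = 0.856), as did 0% of all genes (smallest adjusted p = 0.689). At an unadjusted p under 0.05, limma found 2 channel genes higher in deprived neurons, Cacnb1 and Scn2b, against 3.81% of all genes, and 1 lower, Scn9a, against 1.41% of all genes. In the limma fit against non-deprived array 1 alone, the unadjusted p was 0.0993 for Cacnb1, 0.48 for Scn2b and 0.153 for Scn9a, and 0 of the 31 channel genes lay under 0.05.

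The direction was mostly upward. Of the 31 channel genes, 24 had a higher mean log2 value in deprived neurons and 7 a lower one, where 56.3% of all genes were higher. The median log2 difference of the channel genes was 0.39, against 0.05 over all genes. A log2 difference above 0.5 was seen for 13 channel genes, a size reached by 19.9% of all genes, and 1 lay below -0.5, against 5.61% of all genes. In 4 channel genes (Ank3, Cacna1e, Cacnb1 and Fgf13) every deprived array lay above every non-deprived array, against 6.3% of all genes. In 1 (Scn9a) every deprived array lay below, against 4.03% of all genes. With non-deprived array 2 alone left out, 18 of 31 were higher, where 56.6% of all genes were. The median log2 difference was then 0.11, against 0.05 over all genes. Without non-deprived arrays 2 and 3 the number higher was 17 of 31, where 51.2% of all genes were higher, and the median log2 difference was 0.02. After quantile normalization 19 of 31 were higher, where 43.4% of all genes were, and after median centring 19 of 31, where 38.4% of all genes were.

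**Figure D1:**
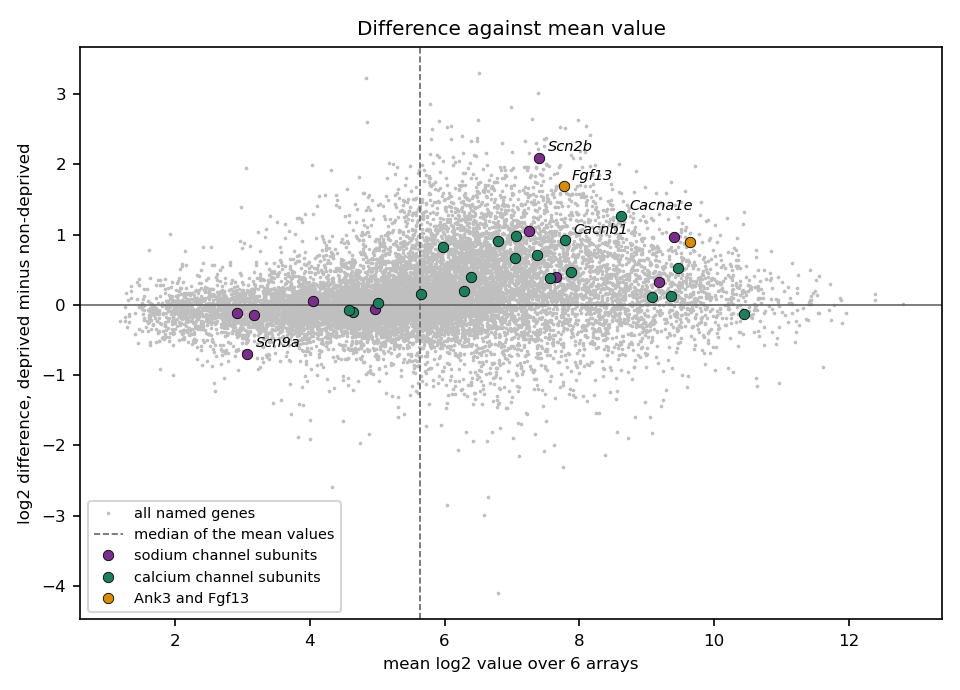
Log2 difference, deprived minus non-deprived, against the mean log2 value over the 6 arrays, for all 14859 named genes (grey) and the 31 channel genes (coloured), with the median of the mean values as a dashed line. The 23 channel genes right of the line have a median difference of 0.67 and the 8 left of it a median of -0.09.

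This direction went with the mean log2 value. Among the 23 channel genes at or above the median of the mean values over all genes (5.63), 22 were higher in deprived neurons, where 68.7% of all genes at such levels were higher, and their median log2 difference was 0.67, against 0.23 for all genes there. With non-deprived array 2 left out, 16 of the 23 were higher, where 64.5% of all genes there were, and the median log2 difference was 0.24, against 0.16. Against non-deprived array 1 alone 14 of the 23 were higher, where 50.5% of all genes there were, and the median was 0.17, against 0.007. Among the 8 channel genes below it, 2 were higher, where 43.9% of all genes there were. Their median log2 difference was -0.09, against -0.03 for all genes there. The 8 comprise Scn7a, Scn9a, Scn10a, Scn11a, Scn4b, Cacna1f, Cacna1s and Cacng1, several of which are known mainly from sensory ganglia, retina or skeletal muscle. Their values stand near the lower part of a range with no known floor, and no measure of detection was used.

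Promoter sequences of the 3 channel genes with an unadjusted p under 0.05 are shown here to set these genes beside each other. Promoter windows of assembly GRCm38.p6 span 250 bases before to 50 bases after each annotated start. They were given for 23 of the 31 channel genes, with 35 windows. Channel genes without a window are Ank3, Cacna1a, Cacna1g, Cacna1h, Cacng1, Cacng4, Scn3a and Scn3b. The windows were searched on both strands for the GC box GGGCGG, the TATA box TATAAA, the cyclic AMP response element half-site TGACGT and the E-box CACGTG, and overlapping matches were each counted. Capitals mark the matches, and for Cacnb1 the windows of both annotated starts are given.
Cacnb1, chr11:98018323-98018622, minus strand: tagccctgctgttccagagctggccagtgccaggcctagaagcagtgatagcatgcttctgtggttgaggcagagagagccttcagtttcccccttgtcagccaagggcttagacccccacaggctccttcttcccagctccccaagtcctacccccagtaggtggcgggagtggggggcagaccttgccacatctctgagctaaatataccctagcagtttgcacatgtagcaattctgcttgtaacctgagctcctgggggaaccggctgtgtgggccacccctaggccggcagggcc
Cacnb1, chr11:98022578-98022877, minus strand: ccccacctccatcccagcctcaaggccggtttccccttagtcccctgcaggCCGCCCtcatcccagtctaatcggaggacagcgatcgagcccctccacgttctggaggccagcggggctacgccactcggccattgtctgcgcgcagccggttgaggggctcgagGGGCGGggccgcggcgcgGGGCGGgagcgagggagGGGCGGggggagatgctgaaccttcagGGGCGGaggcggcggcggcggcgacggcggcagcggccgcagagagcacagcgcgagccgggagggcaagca
Scn2b, chr9:45117626-45117925, plus strand: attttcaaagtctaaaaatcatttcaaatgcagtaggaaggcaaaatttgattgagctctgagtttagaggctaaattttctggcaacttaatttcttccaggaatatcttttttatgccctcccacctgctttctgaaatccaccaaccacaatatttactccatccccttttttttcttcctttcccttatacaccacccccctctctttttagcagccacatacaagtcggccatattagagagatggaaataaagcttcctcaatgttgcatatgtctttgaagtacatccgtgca
Scn9a, chr2:66634913-66635212, minus strand: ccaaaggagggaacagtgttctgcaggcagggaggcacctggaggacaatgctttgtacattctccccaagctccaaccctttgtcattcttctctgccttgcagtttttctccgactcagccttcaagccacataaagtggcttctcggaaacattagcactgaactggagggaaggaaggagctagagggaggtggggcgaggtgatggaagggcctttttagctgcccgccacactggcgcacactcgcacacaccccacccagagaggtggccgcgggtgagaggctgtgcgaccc
The windows differed in base composition. One Cacnb1 window had 73.7% G and C with 34 CpG dinucleotides and 5 GC boxes, and the other 59.3% with 3 CpG and 0 GC boxes. The Scn2b window had 38.3% G and C with 2 CpG, the lowest of the 35 channel gene windows on both counts, and the Scn9a window 57.3% with 9 CpG. None of the 4 motifs was found in the Scn2b or the Scn9a window. Over the 35 windows of the channel genes the GC box occurred in 42.9%, against 35.7% of all 32851 promoters of the same length, the TATA box in 5.7% against 13.6%, the half-site in 2.9% against 7.5% and the E-box in 0.0% against 7.2%. The median share of G and C was 59.3% in channel gene windows and 52.7% in all promoters. A match is a run of letters and not by itself a site of binding.

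Sodium channel pore-forming subunits of the central nervous system overlapped between the groups. Scn1a encodes Nav1.1, and its log2 values were 9.29, 9.24 and 9.53 on the deprived arrays, against 9.67, 8.26 and 9.13 on the non-deprived arrays, each triplet being in the order of arrays 1 to 3 here and below. Scn8a encodes Nav1.6, the channel of the mature axon initial segment, and had log2 values of 7.66, 7.62 and 8.28 on the deprived arrays, against 8.62, 6.17 and 7.59 on the non-deprived arrays. Scn3a encodes Nav1.3, which is expressed mainly before and around birth, and had log2 values of 8.71, 7.28 and 7.35 on the deprived arrays, against 7.37, 4.50 and 8.29 on the non-deprived arrays. Non-deprived array 2 was the lowest of the 6 for each of these genes, and non-deprived array 1 was the highest for Scn1a and Scn8a. The log2 difference was 0.33 for Scn1a (95% interval -0.65 to 1.31) and -0.32 without non-deprived arrays 2 and 3. It was 0.40 for Scn8a (-1.16 to 1.95) and -0.77 without those arrays, and it was 1.06 for Scn3a (-1.35 to 3.46) and 0.40 without them. All 3 log2 differences turned negative when non-deprived array 2 alone was left out, to -0.05 for Scn1a, -0.25 for Scn8a and -0.06 for Scn3a. The interval of Scn3a is the widest among the channel genes. Its own values spanned 4.21 log2 units over the 6 arrays.

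Peripheral and atypical sodium channel genes had low values. Scn10a (Nav1.8) and Scn11a (Nav1.9), known from sensory neurons of the dorsal root ganglion, had log2 values of 3.92 to 4.20 and 3.06 to 3.13 on the deprived arrays, against 3.93 to 4.09 and 3.08 to 3.44 on the non-deprived arrays. Scn7a, which encodes the sodium sensor Nax, had log2 values of 2.73 to 3.03 on the deprived and 2.87 to 3.06 on the non-deprived arrays. The groups overlapped in these genes, and the log2 differences were 0.05 for Scn10a, -0.14 for Scn11a and -0.12 for Scn7a, and -0.01, 0.02 and -0.02 against non-deprived array 1 alone. Scn9a encodes Nav1.7, a channel of pain-sensing neurons, and had log2 values of 2.87, 2.57 and 2.75 on the deprived arrays, against 3.07, 3.12 and 4.07 on the non-deprived arrays. Every deprived array was below every non-deprived array, and non-deprived array 3 stood above the other 5. The log2 difference of Scn9a was -0.69 (95% interval -1.37 to -0.02, limma unadjusted p = 0.0461, adjusted p = 0.856), which became -0.37 with non-deprived array 3 left out and -0.34 against non-deprived array 1 alone.

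Of these sodium channel genes, Scn3a, Scn1a, Scn9a and Scn7a lie in that order on mouse chromosome 2. No other coding gene of the RefSeq gene table (GRCm38.p6) starts between Scn1a, Scn9a and Scn7a, and 4 do between Scn3a and Scn1a. Their log2 differences ran from 1.06 and 0.33 for the 2 genes with higher values to -0.69 and -0.12 for the 2 with low values.

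Sodium channel beta subunits are single-pass membrane proteins. Scn2b, which links covalently to the alpha subunit, had log2 values of 8.53, 7.76 and 9.07 on the deprived arrays, against 7.97, 5.35 and 5.76 on the non-deprived arrays. Non-deprived arrays 2 and 3 lay more than 2 log2 units below non-deprived array 1, which in turn lay within the range of the deprived arrays. The log2 difference of Scn2b, 2.10 (95% interval 0.28 to 3.91, limma unadjusted p = 0.0298, adjusted p = 0.856), was thus the largest of the 31 channel genes, and it was 0.49 without non-deprived arrays 2 and 3. Scn3b, which associates with alpha subunits without a covalent bond, had log2 values of 9.60, 9.91 and 10.16 on the deprived arrays, against 9.46, 7.50 and 9.80 on the non-deprived arrays. Its values on non-deprived arrays 1 and 3 were close to those of the deprived group, and non-deprived array 2 was about 2 log2 units below them. For Scn3b the log2 difference was 0.97 (-0.50 to 2.44), while leaving out non-deprived array 2 gave 0.26 and setting the deprived arrays against non-deprived array 1 alone gave 0.43. Scn4b, which lies next to Scn2b on chromosome 9 and encodes the subunit linked to resurgent current in cerebellar Purkinje neurons, had log2 values of 5.16, 5.07 and 4.58 on the deprived arrays, against 4.73, 5.33 and 4.92 on the non-deprived arrays. The groups overlapped, with a log2 difference of -0.06 (-0.62 to 0.51) that turned to 0.21 without non-deprived arrays 2 and 3.

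Both partners of the sodium channel were higher on each deprived array than on any non-deprived one. Ank3 encodes ankyrin-G, the scaffold that anchors sodium channels at the axon initial segment, and had log2 values of 9.99, 9.94 and 10.33 on the deprived arrays, against 9.93, 8.59 and 9.06 on the non-deprived arrays. The lowest deprived value and the highest non-deprived value were nearly the same, at 9.94 and 9.93. For Ank3 the log2 difference was 0.90 (95% interval -0.02 to 1.81), and 0.16 against non-deprived array 1 alone. Fgf13, an intracellular fibroblast growth factor homologue that binds the tail of sodium channels, had log2 values of 8.87, 8.27 and 8.70 on the deprived arrays, against 8.19, 7.73 and 4.85 on the non-deprived arrays. Non-deprived array 3 lay about 3 log2 units below the rest of its group. For Fgf13 the log2 difference was 1.69 (-0.41 to 3.79), 0.65 without that array and 0.42 against non-deprived array 1 alone.

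**Figure D2:**
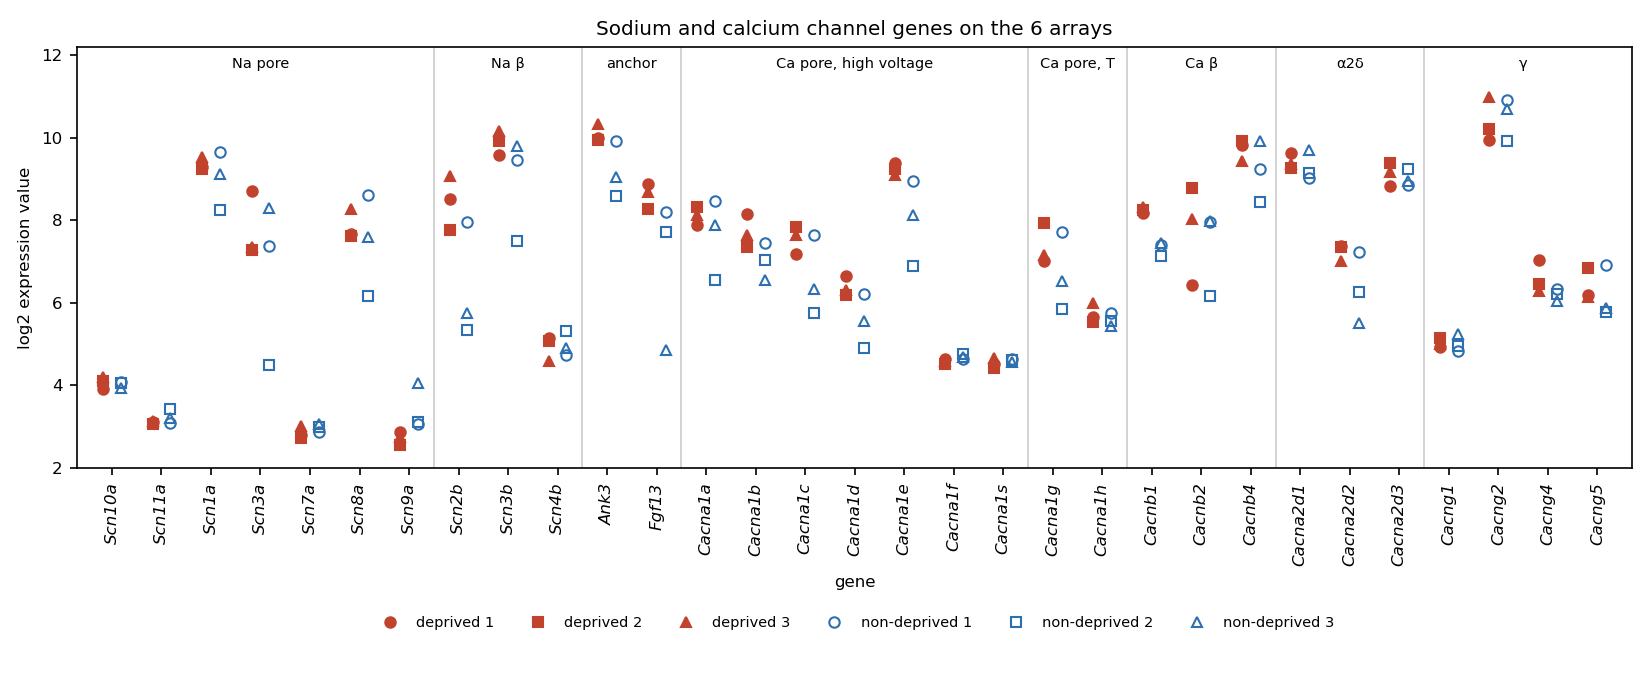
Log2 expression values of the 31 channel genes, grouped by role, with the deprived arrays as filled symbols left of the non-deprived arrays as open symbols, and 1 symbol shape per array number. For genes such as Scn3a, Scn8a, Cacna1a and Cacna1e the open square (non-deprived array 2) lies below all other points, and for Fgf13 the open triangle (non-deprived array 3) does.

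Calcium channels of the P/Q, N and R types admit calcium at presynaptic terminals and along dendrites. Cacna1a encodes Cav2.1, the P/Q-type channel of fast transmitter release, and its log2 values were 7.89, 8.33 and 8.12 on the deprived arrays, against 8.48, 6.56 and 7.90 on the non-deprived arrays. Cacna1b encodes the N-type channel Cav2.2 and had log2 values of 8.16, 7.37 and 7.64 on the deprived arrays, against 7.45, 7.04 and 6.56 on the non-deprived arrays. Cacna1e encodes the R-type channel Cav2.3 and had log2 values of 9.40, 9.25 and 9.10 on the deprived arrays, against 8.95, 6.89 and 8.13 on the non-deprived arrays. The groups overlapped for Cacna1a and Cacna1b and not for Cacna1e, whose highest non-deprived value, 8.95 on array 1, was just below the lowest deprived value of 9.10. Cacna1e thus had a log2 difference of 1.26 (95% interval -0.05 to 2.57), which was 0.30 against non-deprived array 1 alone. For Cacna1b the log2 difference was 0.71 (-0.26 to 1.67) and 0.27 without those arrays. For Cacna1a it was 0.47 (-0.83 to 1.77) and turned to -0.37.

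L-type channels couple activity to transcription in neurons. Cacna1c, which encodes Cav1.2, had log2 values of 7.19, 7.85 and 7.65 on the deprived arrays, against 7.64, 5.74 and 6.34 on the non-deprived arrays. Cacna1d encodes Cav1.3, which opens at more negative voltages than Cav1.2, and had log2 values of 6.66, 6.20 and 6.31 on the deprived arrays, against 6.22, 4.91 and 5.55 on the non-deprived arrays. In both genes non-deprived arrays 2 and 3 were the lowest of the 6, and non-deprived array 1 fell within the deprived range. The log2 difference was 0.99 for Cacna1c (95% interval -0.31 to 2.28) and -0.07 without non-deprived arrays 2 and 3. That of Cacna1d was 0.83 (-0.07 to 1.73) and 0.17 without them. The remaining L-type genes had narrow values. Cacna1f, which encodes Cav1.4 of the retina, had log2 values of 4.53 to 4.65 on the deprived and 4.63 to 4.76 on the non-deprived arrays. Cacna1s, which encodes Cav1.1 of skeletal muscle, had log2 values of 4.43 to 4.66 on the deprived and 4.57 to 4.64 on the non-deprived arrays. Their log2 differences were -0.10 and -0.07, with 95% intervals of -0.40 to 0.20 and -0.38 to 0.24.

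T-type channels open close to rest and support burst firing. Cacna1g had log2 values of 7.03, 7.93 and 7.17 on the deprived arrays, against 7.73, 5.86 and 6.53 on the non-deprived arrays. Cacna1h, which encodes Cav3.2, had log2 values of 5.67, 5.54 and 5.99 on the deprived arrays, against 5.75, 5.55 and 5.43 on the non-deprived arrays. The groups overlapped in both genes. For Cacna1g the log2 difference was 0.67 (95% interval -0.66 to 1.996) and -0.36 without non-deprived arrays 2 and 3, and that of Cacna1h was 0.16 (-0.36 to 0.68) and -0.01 without them.

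Calcium channel beta subunits are cytoplasmic proteins that bind the linker between the first domains of alpha1 and promote its surface expression. Cacnb1 had log2 values of 8.17, 8.26 and 8.33 on the deprived arrays, against 7.41, 7.14 and 7.45 on the non-deprived arrays. The values of each group lay within 0.31 log2 units of each other, and the groups were separated by 0.72. Its log2 values averaged 8.25 ± 0.08 in deprived and 7.33 ± 0.17 in non-deprived neurons (mean ± SD, n = 3 arrays each). The log2 difference of Cacnb1 was 0.92 (95% interval 0.17 to 1.67, limma unadjusted p = 0.023, adjusted p = 0.856). Over the 6 fits that each lack 1 array it ranged from 0.82 to 0.98, and with non-deprived array 1 as the sole reference it was 0.84. After quantile normalization it was 0.60 on the log2 scale, a change of setting that moved it by more than 1.5 times. Cacnb2 had log2 values of 6.44, 8.79 and 8.03 on the deprived arrays, against 7.97, 6.16 and 7.98 on the non-deprived arrays. One array in each group, deprived 1 and non-deprived 2, lay below the other 4. Cacnb4, the subunit lost in the lethargic mouse, had log2 values of 9.83, 9.92 and 9.45 on the deprived arrays, against 9.25, 8.44 and 9.93 on the non-deprived arrays. The groups overlapped for both, and the log2 difference was 0.38 for Cacnb2 (-1.48 to 2.24) and 0.53 for Cacnb4 (-0.47 to 1.53). Without non-deprived array 2 these log2 differences were -0.23 for Cacnb2 and 0.15 for Cacnb4, and against non-deprived array 1 alone they were -0.22 for Cacnb2 and 0.49 for Cacnb4.

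Alpha2delta subunits are extracellular proteins that traffic calcium channels to the surface, and Cacna2d1 and Cacna2d2 encode the binding sites of gabapentin. Cacna2d1 had log2 values of 9.62, 9.28 and 9.37 on the deprived arrays, against 9.03, 9.15 and 9.71 on the non-deprived arrays. Cacna2d3 had log2 values of 8.84, 9.38 and 9.17 on the deprived arrays, against 8.86, 9.25 and 8.95 on the non-deprived arrays. On non-deprived array 2 Cacna2d1 had the second lowest of its 6 values, whereas Cacna2d3 stood at 9.25, above the median of its 6 values. Their log2 differences were 0.13 for Cacna2d1 (95% interval -0.58 to 0.84) and 0.11 for Cacna2d3 (-0.59 to 0.82), and against non-deprived array 1 alone they were 0.40 for Cacna2d1 and 0.27 for Cacna2d3. Cacna2d2 had log2 values of 7.37, 7.35 and 7.004 on the deprived arrays, against 7.23, 6.26 and 5.52 on the non-deprived arrays, so that non-deprived arrays 2 and 3 lay below the other 4. Its log2 difference was 0.91 (-0.24 to 2.06) and 0.01 without those arrays.

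Gamma subunits include the transmembrane AMPA receptor regulatory proteins, which traffic glutamate receptors. Cacng2 encodes stargazin, the best known of them, and had log2 values of 9.94, 10.21 and 10.99 on the deprived arrays, against 10.92, 9.91 and 10.70 on the non-deprived arrays. The groups overlapped, with a log2 difference of -0.13 (95% interval -1.02 to 0.77) and -0.53 without non-deprived arrays 2 and 3. Cacng1, the gamma subunit of skeletal muscle, Cacng4 and Cacng5 are neighbours on chromosome 11. No other coding gene of the RefSeq gene table starts between them. Cacng4 had log2 values of 6.28 to 7.04 on the deprived and 6.04 to 6.35 on the non-deprived arrays, and Cacng5 of 6.15 to 6.86 on the deprived and 5.78 to 6.92 on the non-deprived arrays. Cacng1 had log2 values of 4.92 to 5.14 on the deprived and 4.83 to 5.24 on the non-deprived arrays. The groups overlapped in all 3, and the log2 differences were 0.39 for Cacng4, 0.20 for Cacng5 and 0.02 for Cacng1. Against non-deprived array 1 alone they were 0.25 for Cacng4, -0.52 for Cacng5, which changed sign, and 0.20 for Cacng1.

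**Figure D3:**
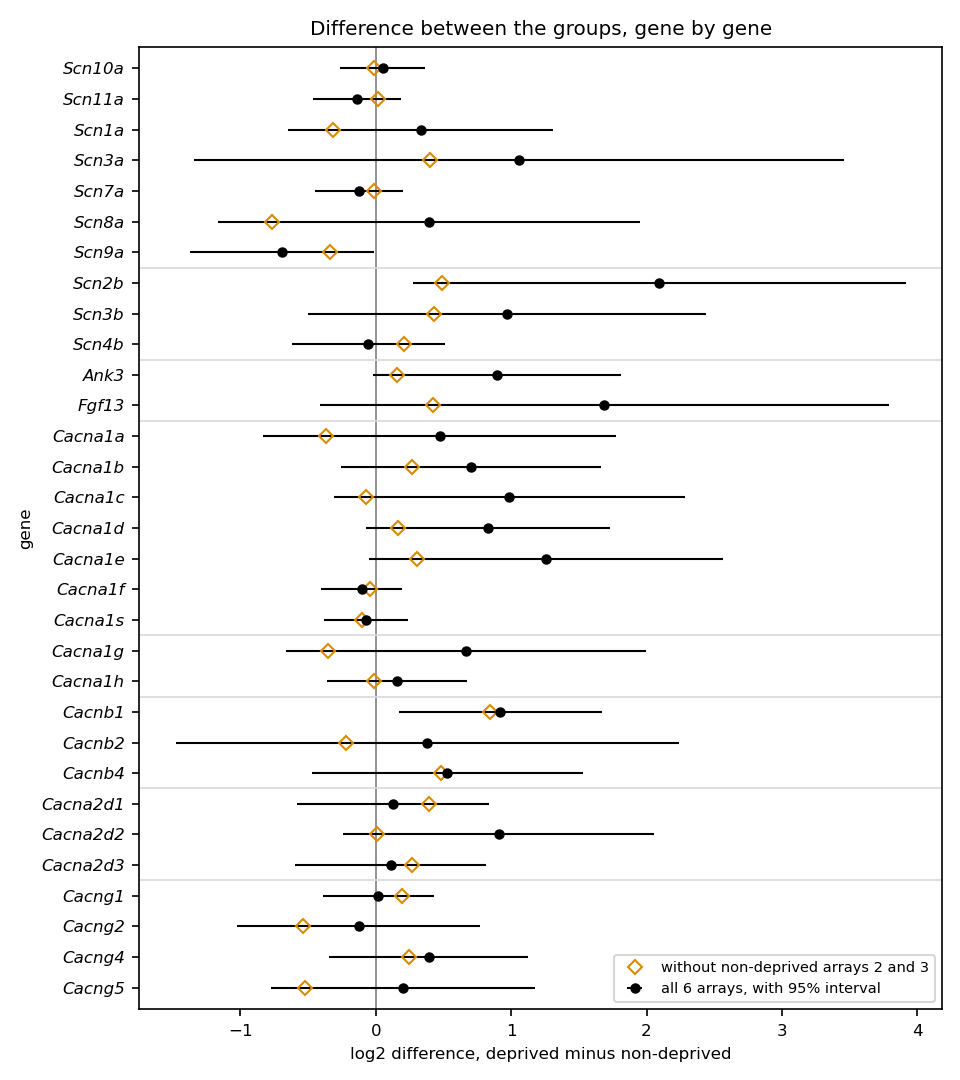
Log2 difference, deprived minus non-deprived, of each channel gene with all 6 arrays (filled circles, with the 95% interval from limma) and without non-deprived arrays 2 and 3 (open diamonds, no interval drawn). The intervals of Cacnb1, Scn2b and Scn9a leave out 0, and the diamond of Cacnb1 lies at 0.84, close to its circle at 0.92.

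Set out by role, the 16 pore-forming subunits had 11 members higher in deprived neurons and a median log2 difference of 0.36. The 15 auxiliary and anchoring members had 13 higher and a median of 0.39. Of all genes 56.3% were higher, with 68.7% at or above the median mean and 43.9% below it. The 10 sodium channel subunits had 6 higher (median log2 difference 0.19) and the 19 calcium channel subunits 16 higher (0.39). By smaller role the median log2 difference was 0.05 for the 7 sodium channel pore-forming genes (-0.008 after quantile normalization and -0.11 after median centring) and 0.97 for the 3 beta genes (0.26 with non-deprived array 2 left out). It was 0.71 for the 7 calcium channel pore-forming genes other than the T-type, 0.41 for the 2 T-type genes and 0.53 for the 3 calcium channel beta genes. It was 0.13 for the 3 alpha2delta genes (-0.03 after median centring) and 0.11 for the 4 gamma genes (-0.08 after quantile normalization and -0.05 after median centring). Against non-deprived array 1 alone, the median turned to -0.02 for the sodium pore-forming genes, -0.04 for the calcium pore-forming genes other than the T-type, -0.19 for the T-type genes and -0.16 for the gamma genes. With non-deprived array 2 alone left out, 7 of the 16 pore-forming genes were higher (median log2 difference -0.04) and 11 of the 15 others (0.22). In that setting 56.6% of all genes were higher, and 1 of the 7 sodium channel pore-forming genes was. Without non-deprived arrays 2 and 3, 5 of the 16 pore-forming genes were higher (median log2 difference -0.03) and 12 of the 15 others (0.25), while 51.2% of all genes were higher. The split between pore-forming and other members was drawn by role and was not tested. Roles also differed in level. Sodium pore-forming genes Scn7a, Scn9a, Scn10a and Scn11a had means below the median of the mean values over all genes. So did the calcium pore-forming genes Cacna1f and Cacna1s, and among the other members Scn4b and Cacng1. Scn1a, Scn8a and Scn3a, which lay above it, had log2 differences of 0.33, 0.40 and 1.06.

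How the members varied from array to array was common to many of them. Non-deprived array 2 held the lowest of the 6 values for 16 of the 31 channel genes, against 23.2% of all genes, and non-deprived array 3 for 5, against 23.6% of all genes. Among the 23 channel genes at or above the median mean it was the lowest for 16 as well, against 34.2% of all genes at such levels. The channel genes deviated from their own 6-array means by a median of 0.10, 0.13 and 0.22 log2 units on deprived arrays 1 to 3, and of 0.09, -0.53 and -0.07 on non-deprived arrays 1 to 3. For all genes these median deviations lay between -0.08 and 0.07 log2 units on the 6 arrays. At or above the median mean, the median deviation on non-deprived arrays 2 and 3 was -1.03 and -0.34 for channel genes, and -0.24 and -0.22 for all genes. On non-deprived array 1 the median log2 value of the channel genes, 7.45, was within the deprived range of 7.37 to 7.64, whereas non-deprived arrays 2 and 3 were at 6.16 and 6.34. The summed level of excitatory markers was 1280.7 on non-deprived array 2, against 1738.2 on array 1 and 1719.5 on array 3 of that group. On the deprived arrays it was 2369 to 3028.8. The sums of non-deprived arrays 1 and 3 were close, but the single markers differed in both directions. Higher on array 1 than on array 3 were Tbr1 (log2 values 8.598 and 6.439), Slc17a7 (9.436 and 9.038) and Slc17a6 (6.004 and 5.514). Lower were Neurod6 (5.837 and 8.245) and Camk2a (9.068 and 9.566). The part that these markers play in the result was not tested.

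**Figure D4:**
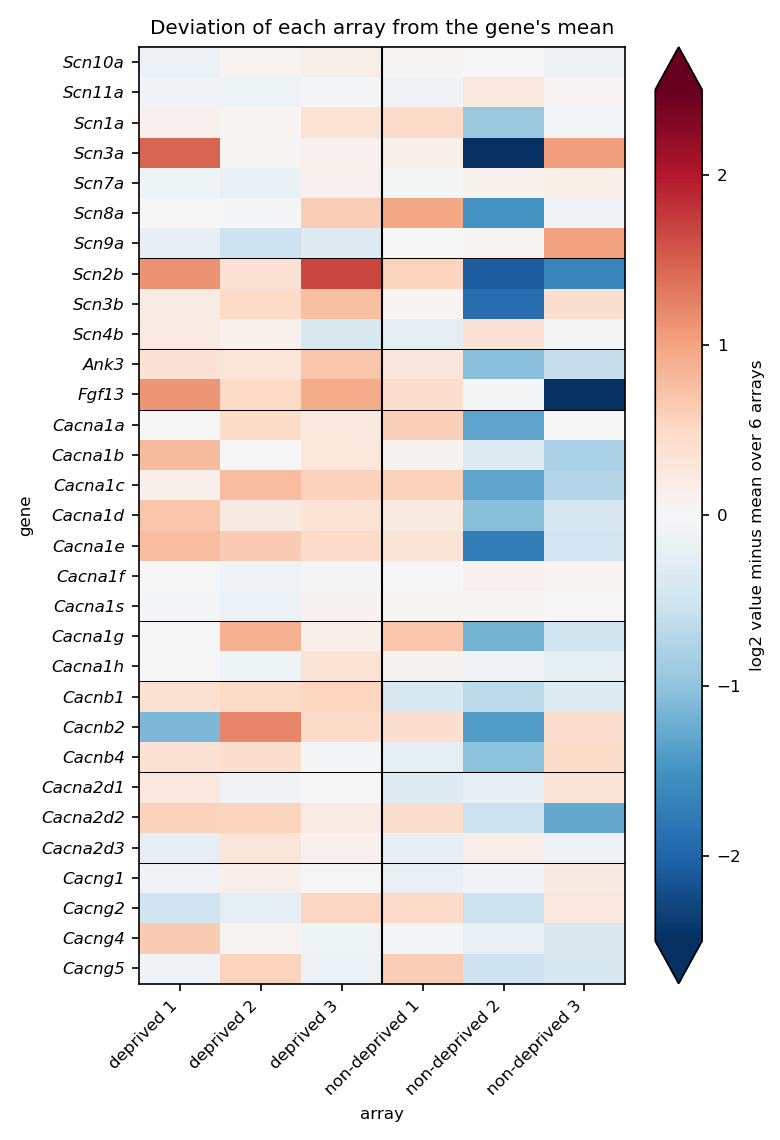
Log2 value minus the gene's mean over 6 arrays, for each of the 31 channel genes (rows, by role) on the deprived (left) and non-deprived (right) arrays, with colours ending at ±2.5. The column of non-deprived array 2 is blue for most genes, with a median of -0.53, and that of non-deprived array 1 resembles the deprived columns.

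The spread over the 6 arrays differed between members. The range from the lowest to the highest log2 value was 0.23 for Cacna1f and Cacna1s, 0.29 for Scn10a and 0.33 for Scn7a, and it was 4.21 for Scn3a, 4.02 for Fgf13 and 3.72 for Scn2b. The median range was 1.48 log2 units, against 1.01 for all genes. It was 0.35 for the 8 channel genes below the median mean, against 0.67 for all genes there, and 1.76 for the 23 above it, against 1.55 for all genes there.

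Proteins that work with these channels were taken from a list of 60 genes, of which 43 were measured. It holds ankyrins, spectrins, intracellular fibroblast growth factor homologues, release-site scaffolds, calmodulin and its targets, small GTPases that inhibit calcium channels, intracellular calcium release channels and sperm calcium channels. Of the 43, 36 were higher and 7 lower in deprived neurons, where 56.3% of all genes were higher. At or above the median mean 68.7% of all genes were higher. The 43 partner genes lay on both sides of that median and were not split by it. Of the same genes 0 passed limma's adjusted threshold and 0 had an unadjusted p under 0.05 in either direction, where 5.22% of all genes did. The median log2 difference was 0.24, and 0.05 without non-deprived arrays 2 and 3, when 26 were higher, where 51.2% of all genes were. Among the genes higher in deprived neurons the smallest p belonged to Slmap, Ank2 and Sptbn1. Slmap, which encodes a sarcolemma-associated membrane protein, had log2 values of 9.60, 9.50 and 8.81 on the deprived arrays, against 8.78, 7.71 and 8.68 on the non-deprived arrays. Ank2, which encodes ankyrin-B, had log2 values of 10.37, 9.99 and 10.22 on the deprived arrays, against 10.01, 9.72 and 9.34 on the non-deprived arrays. Sptbn1, which encodes a beta spectrin of the membrane skeleton, had log2 values of 10.73, 10.69 and 10.61 on the deprived arrays, against 10.47, 9.87 and 10.48 on the non-deprived arrays. In 4 of the 43 (Slmap, Sptbn1, Kcnq3 and Ppp3ca) every deprived array lay above every non-deprived one, against 6.3% of all genes. The log2 differences were 0.91 for Slmap, 0.51 for Ank2 and 0.40 for Sptbn1. Against non-deprived array 1 alone they were 0.52, 0.18 and 0.20. Among the lower genes the smallest p belonged to Catsper2, a sperm calcium channel gene, Tpcn2, an endolysosomal channel gene, and Rims3, a release-site protein gene. Their log2 differences were -0.48, -0.25 and -0.21. Without non-deprived arrays 2 and 3 the sign of Catsper2 turned, to 0.09, while Tpcn2 was at -0.545 and Rims3 at -0.975.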

How the data were processed

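Messenger RNA was measured on 6 exon arrays, 1 per sample, in 3 deprived and 3 non-deprived samples. The deposited table gives log2 expression for 23331 transcript clusters on every array, as summarised by the authors. The log2 scale was read from the values (0.584 to 13.639). How the authors corrected background, normalized and summarised is not stated by the labels or the table. Per the submitters' processing notes the genome build was mm9.

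Clusters with 1 symbol in the platform annotation (14995) were kept, 1019 with several were not named and 7317 without one stayed unnamed. Entrez identifiers were matched to RefSeq names of GRCm38.p6 for 14940 clusters, and 0 symbols needed a change. Where a gene had more than 1 cluster (135 genes) the one with the highest mean was used, leaving 14859 genes. No filter on low values was applied, and the number of arrays limits the precision (median standard error of a log2 difference 0.312).

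Groups were compared with limma 3.58.1 in R 4.3.3 (lmFit, eBayes with a trend, group as sole term, two-sided, Benjamini-Hochberg over all genes at 0.05), after tests on simulated data. Intervals are 95%. Replicate block, scaling, filters, array weights, clusters per gene, variance trend and leaving out arrays were tried as alternatives. Every member was described, with values on every array for a fixed set of neuronal subunits, for Ank3 and Fgf13 and for any member with an unadjusted p under 0.05, and the partner genes named are the 3 with the smallest p in each direction. The members and lists were chosen with earlier results of these data known.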

Additional observations from a re-analysis of the deposited data

How the results depend on the processing

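Limma called 0 of 14859 genes with all 6 arrays and 0 under each of the 15 alternatives, with 775 genes at an unadjusted p under 0.05 in the 6-array fit. The number of channel genes higher in deprived neurons was 24 of 31 with all arrays, where 56.3% of all genes were higher. It was 18 to 25 when 1 array was left out, where 52.55% to 58.23% of all genes were. The 18 came without non-deprived array 2, where 56.6% of all genes were higher. The number was 17 without non-deprived arrays 2 and 3, an alternative chosen after seeing the data, where 51.2% of all genes were. It was 19 after quantile normalization and 19 after median centring, which moved the median log2 difference of all genes from 0.05 to -0.056 and -0.11. The channel genes' median log2 difference was 0.39 with all arrays, and 0.07 and 0.23 after these scalings, so that it stayed above that of all genes. Leaving out 1 array gave medians of 0.11 (without non-deprived array 2) to 0.66 (without non-deprived array 1), and leaving out both non-deprived arrays 2 and 3 gave 0.02. Restricted to genes whose mean reached the median it was 0.67 for 23 channel genes, and above the 25th percentile 0.47 for 27. The replicate number as a block left the median at 0.39 and the count of calls at 0, while the unadjusted p of Cacnb1 was 0.0673 with the block, against 0.023 without it, and that of Cacna1d was 0.0437, against 0.0651. Samples that share a number did not deviate together (correlations of -0.051, -0.018 and -0.003 across genes), and the labels do not say whether a shared number marks 1 animal. The sign held under all 15 alternatives for 15 channel genes and turned under at least 1 for 16, and 27 of 31 moved by over 1.5 times when 1 array was left out. The cause of these turns was not tested. The signs that turned when 1 array was left out belong to these ranges of log2 differences, -0.073 to 0.89 for Cacna1a, -0.007 to 0.33 for Cacna2d1, -0.013 to 0.26 for Cacna2d3, -0.23 to 1.04 for Cacnb2, -0.069 to 0.14 for Cacng1, -0.43 to 0.091 for Cacng2, -0.028 to 0.57 for Cacng5, -0.011 to 0.13 for Scn10a, -0.048 to 0.66 for Scn1a, -0.056 to 1.84 for Scn3a, -0.19 to 0.12 for Scn4b and -0.25 to 0.98 for Scn8a. Without non-deprived arrays 2 and 3, the sign of the log2 difference turned for Cacna1a (-0.37), Cacna1c (-0.074), Cacna1g (-0.36), Cacna1h (-0.013), Cacnb2 (-0.22), Cacng5 (-0.52), Scn10a (-0.012), Scn11a (0.018), Scn1a (-0.32), Scn4b (0.21) and Scn8a (-0.77). After quantile normalization it turned for Cacna1h (-0.017), Cacna2d3 (-0.025), Cacng1 (-0.084), Cacng5 (-0.077) and Scn8a (-0.008). After median centring it turned for Cacna1h (-0.001), Cacna2d1 (-0.032), Cacna2d3 (-0.048), Cacng1 (-0.14) and Scn10a (-0.11). With array weights it turned for Cacng1 (-0.010).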

Other observations

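Genes of the amiloride-sensitive epithelial sodium channel, which is not gated by voltage and is known from kidney and airway, lie outside the symbol rule and were looked at after the channel genes. Scnn1a had log2 values of 5.61, 5.55 and 6.07 on the deprived arrays, against 5.63, 5.37 and 5.68 on the non-deprived arrays. Scnn1b had log2 values of 3.52 to 3.57 on the deprived and 3.34 to 3.66 on the non-deprived arrays, and Scnn1g of 4.10 to 4.23 on the deprived and 4.15 to 4.41 on the non-deprived arrays. The groups overlapped in all 3 genes, and the log2 differences were 0.19 for Scnn1a, 0.08 for Scnn1b and -0.09 for Scnn1g, with adjusted p from 0.911 to 0.938 in limma. Scnm1, a splicing factor first found as a modifier of a sodium channel mutation in the mouse, had log2 values of 8.40, 9.99 and 10.03 on the deprived arrays, against 9.13, 9.71 and 7.34 on the non-deprived arrays, a log2 difference of 0.75 with a 95% interval of -1.03 to 2.52.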
